A study of Mus musculus with 8 samples.

Results

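The 10 genes described here belong to the ATF4/CHOP stress response and the unfolded protein response and were read from RNA sequencing of mouse liver and bone marrow cells exposed to auranofin, a gold-containing drug. They were chosen by name rather than by a measured value, although earlier results of these data were known. The 10 are Atf4, Ddit3, Atf3, Trib3, Asns, Chac1, Sesn2, Ddit4, Hspa5 and Xbp1. All 10 were found among the 18645 genes of the table for activated hepatic stellate cells (AHSC) and among the 17408 genes of the table for bone marrow-derived macrophages (BMDM). The series held 8 libraries, with 2 control and 2 auranofin libraries for each cell type. The AHSC were primary cells from livers of C57BL/6 mice, isolated by density gradient, and were either untreated by the labels (vehicle-treated by the study's legend) or exposed to 0.03 µM auranofin for 12 h. The BMDM came from bone marrow of 8-week-old male C57BL/6 mice and were differentiated with M-CSF. Controls and treated BMDM alike received LPS at 100 ng/mL, a bacterial lipopolysaccharide, with ATP at 1 mM, and the treated cells also received auranofin at 0.1 µM by the labels for 1 h by the study's text. The study's legend gives another auranofin dose for this experiment. Dose, time, stimulus and cell type all differed between the 2 tables, so their effects cannot be told apart. The labels do not say whether replicates were separate cultures or animals, so p-values measure only the spread between these libraries. BMDM without LPS and ATP were not analysed here, so any part of a level that the stimulus itself set was not measured.

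When unfolded proteins gather in the endoplasmic reticulum (ER), when amino acids run short or when the redox balance is disturbed, kinases phosphorylate the initiation factor eIF2. General translation then slows while the mRNA of ATF4 is translated more, and ATF4 switches on genes of amino acid supply, redox defence and, through CHOP, cell death. The unfolded protein response has other arms beside this one, in which ATF6 is cut and the mRNA of XBP1 is spliced, and these raise ER chaperones such as BiP, the product of Hspa5. Each table gave 1 value per gene, so neither the splicing of Xbp1 mRNA nor the translation of Atf4 mRNA was measured.

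The binding elements of these factors were searched in the RefSeq start window of each gene on GRCm38.p6 (mm10), which runs from 250 bases before the annotated start to 50 bases after it. The C/EBP-ATF response element (CARE), which ATF4 can bind with a C/EBP partner, was searched on both strands as TGATGNAAN and was present in 3.95% of all 32851 windows. It matched in 4 of the 10 genes, Atf3, Chac1, Asns and Trib3. The ER stress response element (ERSE), which ATF6 can bind, was searched as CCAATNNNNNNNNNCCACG on both strands. An exact match was present in 0.119% of windows and, among the 10 genes, in Hspa5. Stretches a letter away from the pattern were not counted. The window of Ddit3 holds such a stretch (cgtgccgctttctgattgg), in which the pattern reads on the opposite strand. The unfolded protein response element TGACGTGG, present in 0.676% of windows, matched in 0 of the 10. The 3 motifs were chosen after other motifs had been searched and matches had been seen, and a match is a description of letters, not a bound site. The matches lay in the stretches shown here, which are given because they carry the known kind of element through which the 2 arms act. They are written 5′ to 3′ on the strand of the gene, with the matched element in capitals. They lie at chr1:191183334-191183533 (minus strand, Atf3), chr2:119350992-119351191 (plus strand, Chac1), chr6:7693210-7693409 (minus strand, Asns), chr2:152344031-152344160 (minus strand, Trib3) and chr2:34771890-34772089 (plus strand, Hspa5).
Atf3: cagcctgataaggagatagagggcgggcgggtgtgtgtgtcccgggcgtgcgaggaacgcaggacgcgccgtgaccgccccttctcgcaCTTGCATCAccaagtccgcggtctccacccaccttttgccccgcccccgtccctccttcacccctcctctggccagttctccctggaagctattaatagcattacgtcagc
Chac1: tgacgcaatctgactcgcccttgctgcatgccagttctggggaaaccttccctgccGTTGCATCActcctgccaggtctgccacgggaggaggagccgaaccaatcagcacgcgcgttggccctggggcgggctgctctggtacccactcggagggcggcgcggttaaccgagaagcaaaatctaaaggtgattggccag
Asns: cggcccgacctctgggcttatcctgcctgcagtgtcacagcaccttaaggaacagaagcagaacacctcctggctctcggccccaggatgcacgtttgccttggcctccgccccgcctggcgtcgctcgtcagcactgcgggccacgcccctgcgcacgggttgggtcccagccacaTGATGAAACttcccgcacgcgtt
Trib3: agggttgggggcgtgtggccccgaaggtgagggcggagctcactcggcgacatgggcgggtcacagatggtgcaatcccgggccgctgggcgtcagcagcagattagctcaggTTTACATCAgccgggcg
Hspa5: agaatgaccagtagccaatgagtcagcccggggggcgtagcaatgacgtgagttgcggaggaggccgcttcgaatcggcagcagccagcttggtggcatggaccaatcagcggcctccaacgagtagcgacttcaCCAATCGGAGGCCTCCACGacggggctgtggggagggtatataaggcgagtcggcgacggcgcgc

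Counted from the annotated start, the CARE of Atf3 ran from -111 to -103, that of Chac1 from -194 to -186 and that of Asns from -23 to -15. The CARE of Trib3 lay just past the start, from 14 to 22. In Asns the element read along the strand of the gene, and in Atf3, Chac1 and Trib3 it read on the opposite strand. The ERSE of Hspa5 ran from -65 to -47 on the strand of the gene. Among the related genes described later, the CARE was present in 5 of the 9 genes of tRNA charging and export with a window (Aars, Gars, Iars, Tars and Yars). It was present in 1 of 9 amino acid synthesis genes, 2 of 7 amino acid transporters, 5 of 19 other ATF4 and CHOP targets, 0 of 8 sensors and eIF2 phosphatases, 1 of 14 ER chaperone and folding genes and 0 of 11 ER-associated degradation genes. The ERSE was present in 7 of the 14 ER chaperone and folding genes with a window (Hsp90b1, Calr, Canx, Pdia6, Dnajc3, Creld2 and Ero1lb), in 2 of the 11 ER-associated degradation genes and in 0 genes of the other lists. Of the 10 genes, those without an exact match in the window lie at chr15:80255184-80257545 (Atf4), chr10:127290793-127296291 (Ddit3), chr4:132492804-132510456 (Sesn2), chr10:59949675-59951770 (Ddit4) and chr11:5520641-5525993 (Xbp1).

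**Figure D1:**
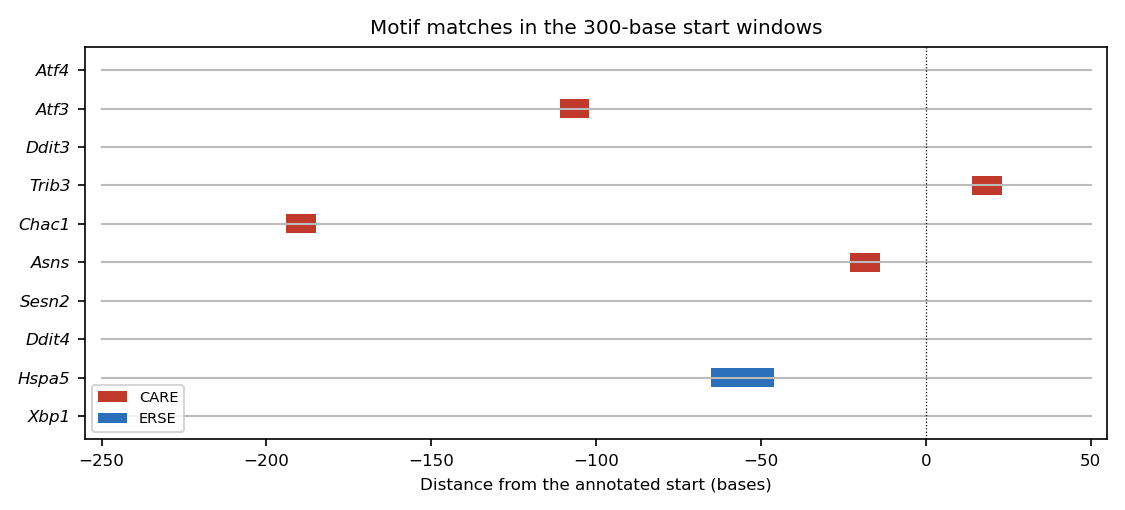
Motif matches in the start windows of the 10 genes, by distance in bases from the annotated start (dotted line); red boxes mark the CARE and the blue box the ERSE. A CARE is present in Atf3, Trib3, Chac1 and Asns and an ERSE in Hspa5, and the lines without a box have no match to these letters.

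The authors gave expression as FPKM, the fragments of a gene scaled to transcript length and to the size of the library, which allows levels of different genes to be set side by side. The depth, estimated from the steps in which part of the low values are spaced, was between 27500000 and 39500000 fragments per library. Tests used limma on log2(FPKM + 1) over genes averaging 1 FPKM or more, which all 10 genes passed in both tables. A gene was called past the thresholds at 1.5-fold or more with an unadjusted p under 0.05, and Benjamini-Hochberg adjusted p-values over all genes tested are given beside this. An exact permutation of 2 libraries against 2 cannot give a p under 0.333, so each statement rests on limma's shared estimate of the spread.

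Before the results, the libraries were compared with each other. In BMDM the 2 auranofin libraries did not resemble each other. Taking the 4245 genes that averaged 10 FPKM or more, 413 were at least 2-fold apart between auranofin replicate 1 and replicate 2, against 15 between the 2 control libraries. Replicate 1 was at least 2-fold from the controls in 406 and 424 genes, whereas replicate 2 was so in 16 and 12. In AHSC, between 15 and 38 of 6430 genes were 2-fold apart in any pair of libraries. The BMDM values of the 10 genes are therefore given for each auranofin library, and their calls also with either one left out. The BMDM libraries carried the defining macrophage transcripts, such as Lyz2 at between 3625 and 4279 FPKM, with the Kupffer cell marker Clec4f at no more than 0.028 FPKM. The 10 macrophage markers summed to between 7063 and 7209 FPKM in the BMDM controls and between 7145 and 7983 FPKM with auranofin, and the 9 stellate markers in that table to between 10.2 and 16.1 FPKM. The AHSC libraries carried stellate transcripts such as Col1a1 at between 927 and 1075 FPKM. They also carried Lyz2, a macrophage gene, at between 5379 and 5554 FPKM and Clec4f at between 58.6 and 73.5 FPKM, so the AHSC values describe a mixture. The 5 hepatocyte markers listed in the AHSC table summed to at most 1.7 FPKM. In such bulk samples a change in the share of a cell type and a change of RNA within its cells cannot be told apart.

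**Figure D2:**
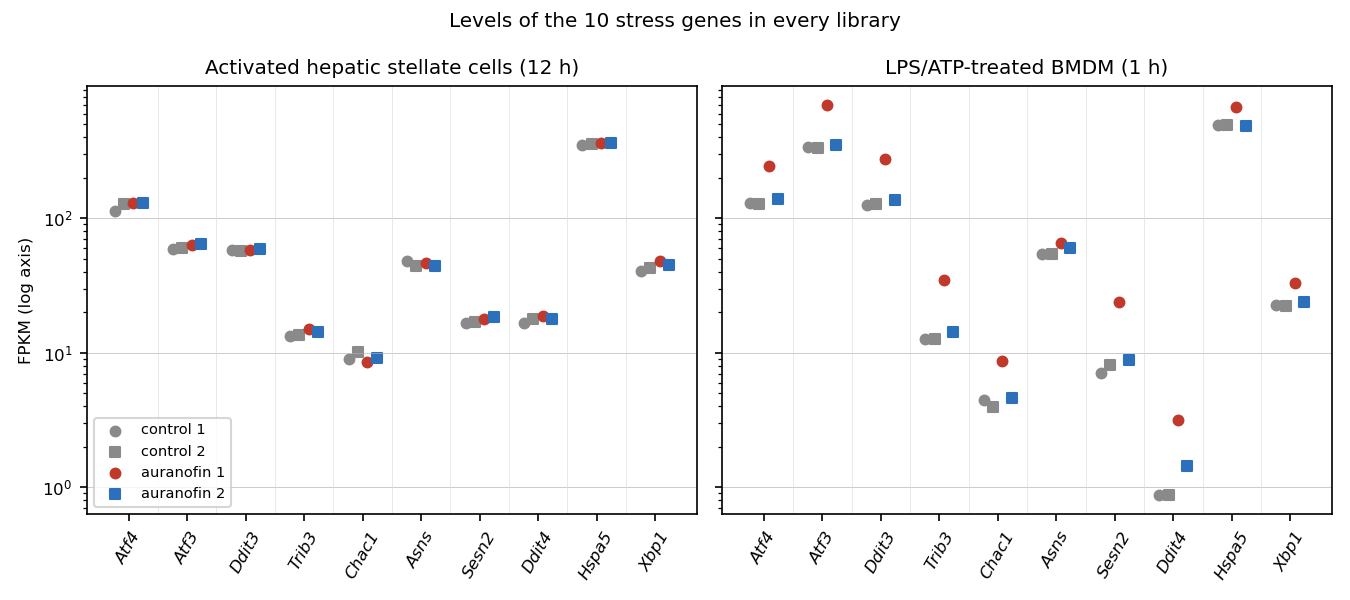
FPKM (log axis) of the 10 genes in each of the 8 libraries, in AHSC on the left and LPS/ATP-treated BMDM on the right; circles are replicate 1 and squares replicate 2, grey for control, red and blue for auranofin. The 4 AHSC libraries lie close together for every gene, whereas in BMDM auranofin replicate 1 lies above the other 3 libraries for all 10 genes.

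In control AHSC, Hspa5 was the most abundant of the 10 transcripts and Chac1 the least abundant. The order of the control means was Hspa5, Atf4, Atf3, Ddit3, Asns, Xbp1, Ddit4, Sesn2, Trib3 and Chac1. The control libraries of Ddit4 and Sesn2 overlapped, so their order is not separated, and those of other neighbours did not. In control BMDM the order was Hspa5, Atf3, Atf4, Ddit3, Asns, Xbp1, Trib3, Sesn2, Chac1 and Ddit4, and there the control libraries of neighbours did not overlap. Tables were normalized separately, so levels are compared within a table.

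In AHSC none of the 10 genes passed the thresholds, against a background of 0.576% of the 12149 genes tested (70 genes, 52 higher and 18 lower). By adjusted p alone, 0 of the 10 passed against 2.33% of all genes. On the log2(FPKM + 1) scale the differences ran from -0.10 for Chac1 to 0.17 for Xbp1. This order rests on single libraries: Chac1 was at -0.02 without control replicate 2, where Asns was lower at -0.10, and at -0.18 without control replicate 1, and without auranofin replicate 1 Sesn2 and Xbp1 were both at 0.13. Differences were above 0 for 8 genes and below 0 for 2, with a median of 0.09 beside a median of 0.005 over all genes. The 95% intervals of all 10 lay between -0.27 and 0.29, so every interval ended short of a 1.5-fold difference in either direction.

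Among the transcription factors, Atf4 stood at 114 and 128 FPKM in the AHSC controls and at 130 and 129 FPKM with auranofin. Its treated libraries were above both controls, but by less than the controls differed from each other. Ddit3, which encodes CHOP, gave 58.1 and 56.9 FPKM in controls and 58.1 and 59.3 FPKM with auranofin, and the groups overlapped. Atf3, a stress-induced repressor and activator of the same bZIP family, gave 59.5 and 60.4 FPKM in controls and 62.9 and 64.4 FPKM with auranofin. For Atf3 the groups did not overlap, at a difference of 0.08 ± 0.03 (SE, log2 scale, n = 2 against 2; limma, Benjamini-Hochberg adjusted p = 0.291). Trib3, a pseudokinase induced by ATF4 and CHOP, gave 13.4 and 13.5 FPKM in controls and 15.03 and 14.17 FPKM with auranofin, again without overlap.

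Among the 10 genes, none of the ATF4 targets of amino acid and redox supply passed the thresholds. Asns, the asparagine synthetase, gave 48.2 and 44.3 FPKM in AHSC controls and 46.3 and 43.8 FPKM with auranofin, so the groups overlapped. Chac1, which degrades glutathione, gave 8.997 and 10.16 FPKM in controls and 8.59 and 9.10 FPKM with auranofin. Chac1 was thus the gene whose treated libraries were both below the control mean, although the groups overlapped. Sesn2, an antioxidant and inhibitor of mTORC1, gave 16.6 and 17.0 FPKM in controls and 17.9 and 18.4 FPKM with auranofin. Ddit4, another inhibitor of mTORC1, gave 16.5 and 17.7 FPKM in controls and 18.8 and 17.9 FPKM with auranofin. Sesn2 and Ddit4 were higher in both treated libraries than in both controls, by 0.11 and 0.09 on the log2 scale.

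Of the ER genes in AHSC, both had treated libraries above both controls. Xbp1, the factor whose mRNA is spliced by IRE1, gave 40.4 and 42.4 FPKM in controls and 48.2 and 45.3 FPKM with auranofin. Its difference of 0.17 ± 0.05 (SE, log2 scale) had the smallest p of the 10 genes, with an adjusted p of 0.146 by limma with Benjamini-Hochberg adjustment. Hspa5, the chaperone BiP, gave 352 and 356 FPKM in controls and 362 and 363 FPKM with auranofin. At an unadjusted p under 0.05, Xbp1 and Sesn2 passed, 2 of 10 against 17.8% of all genes. Both auranofin libraries were above both controls in 7 of the 10 genes (Atf4, Atf3, Trib3, Sesn2, Ddit4, Hspa5 and Xbp1), against 26.2% of all genes. In the same libraries 8 of 10 stellate and 8 of 10 macrophage markers had lower fitted values with auranofin, beside a median of 0.005 over all genes. Of all genes, 2.33% had an adjusted p under 0.05 by limma with Benjamini-Hochberg adjustment, in either direction. Past an adjusted p of 0.05 by limma with Benjamini-Hochberg adjustment were Acta2 of the stellate markers, at -0.38 (log2 scale, adjusted p = 0.00719), and the sinusoidal endothelial markers Stab2 at -0.37 (0.0169) and Clec4g at -0.44 (0.0130). Clec4f of the macrophage markers rose by 0.27 (adjusted p = 0.0395). Of the 6 endothelial markers 3 had lower and 3 higher fitted values, and they summed to between 190.0 and 196.8 FPKM in controls and between 187.2 and 199.5 FPKM with auranofin. The stellate markers summed to between 3752 and 3909 FPKM in controls and between 3330 and 3427 FPKM with auranofin. The macrophage markers summed to between 6633 and 6698 FPKM and between 6503 and 6544 FPKM. Most of the macrophage sum was Lyz2, at 5519 and 5554 FPKM in controls and 5379 and 5440 FPKM with auranofin. None of the macrophage, stellate or endothelial markers was listed at 0. The part of this mixture in the differences of the 10 genes was not tested.

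In BMDM none of the 10 genes passed the thresholds either, against a background of 0.152% of the 9232 genes tested (14 genes, 8 higher and 6 lower). By adjusted p, 0 of the 10 passed against 0.0108% of all genes, which is 1 gene, and by unadjusted p 0 of the 10 against 0.531%. The fitted differences were nevertheless larger than in AHSC and all above 0, from 0.20 ± 0.11 (SE) for Asns to 0.86 ± 0.49 for Sesn2 on the log2(FPKM + 1) scale, with a median of 0.54 beside 0.09 over all genes. The 95% intervals reached from -0.49 to 2.22 with the 2 auranofin libraries far apart. In replicate 1 the median difference of the 10 genes from the control mean was 0.98, beside 0.18 over all genes, and in replicate 2 it was 0.12, beside 0.005. In replicate 1, 7 of the 10 genes were at least 1.5-fold above the control mean on that scale (Atf4, Atf3, Ddit3, Trib3, Chac1, Sesn2 and Ddit4), against 15.2% of all genes. In replicate 2, 0 of the 10 were, against 0.379% of all genes.

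Atf4 stood at 131 and 128 FPKM in the BMDM controls, 246 FPKM in auranofin replicate 1 and 139 FPKM in replicate 2. Replicate 1 was thus 1.90 times and replicate 2 was 1.07 times the control mean. Ddit3 gave 125 and 127 FPKM in controls, 278 FPKM in replicate 1 and 137 FPKM in replicate 2. For CHOP, whose transcript this is, the ratios to the control mean were 2.21 and 1.08. Ddit3 overlaps Mars (methionyl-tRNA synthetase) and Mbd6 on chromosome 10, and these were near their control levels in both auranofin libraries. Mars gave 12.7 and 13.0 FPKM in controls and 11.4 and 13.0 FPKM with auranofin, and Mbd6 gave 4.27 and 4.39 FPKM in controls and 4.85 and 4.24 FPKM with auranofin.

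Atf3 was the second most abundant of the 10 in these stimulated macrophages, where it is known as a brake on inflammatory genes. It gave 336 and 333 FPKM in controls, 690 FPKM in auranofin replicate 1 and 352 FPKM in replicate 2. Trib3 gave 12.8 and 12.6 FPKM in controls, 35.1 FPKM in replicate 1 and 14.3 FPKM in replicate 2. The ratios of replicate 1 to the control mean were 2.06 for Atf3 and 2.77 for Trib3. Those of replicate 2 were 1.05 and 1.13.

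Of the metabolic targets, Sesn2 and Ddit4 had the larger fitted differences, at 0.86 and 0.77 on the log2(FPKM + 1) scale, and with a pseudocount of 0.1 their order turned, at 0.93 and 1.20. Sesn2 gave 7.11 and 8.17 FPKM in the BMDM controls, 23.997 FPKM in auranofin replicate 1 and 8.87 FPKM in replicate 2. Replicate 1 was 3.14 times and replicate 2 was 1.16 times the control mean, so replicate 2 was barely above the higher control. Ddit4 was the lowest of the 10 transcripts in BMDM, at 0.877 and 0.879 FPKM in controls, 3.17 FPKM in replicate 1 and 1.45 FPKM in replicate 2. Its values stood for about 46 and 42 fragments in controls and 195 and 88 fragments with auranofin. Ddit4 was the gene in which replicate 2 differed most from controls, at 1.65 times the control mean, with 3.61 times in replicate 1. It also had the smallest p of the 10, at an adjusted p of 0.721 by limma with Benjamini-Hochberg adjustment, the value shared by all 10 genes. Chac1 gave 4.45 and 3.98 FPKM in controls, 8.77 FPKM in replicate 1 and 4.65 FPKM in replicate 2. Asns, the lowest of the 10 by its ratio in replicate 1, gave 53.9 and 54.4 FPKM in controls, 65.5 FPKM in replicate 1 and 59.7 FPKM in replicate 2. The CARE printed for Asns, Chac1, Atf3 and Trib3 thus stood beside ratios in replicate 1 that ran from 1.21 in Asns to 2.77 in Trib3. In the genes without a CARE match in the start window, the ratios ran from 1.36 in Hspa5 to 3.61 in Ddit4. Elements outside the window were not searched, so these genes may still have a CARE. A link between motif and ratio was not tested.

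The ER genes Hspa5 and Xbp1 had lower ratios in auranofin replicate 1 than all of the others but Asns. Hspa5, with the ERSE shown in its start window, gave 493 and 494 FPKM in the BMDM controls, 672 FPKM in auranofin replicate 1 and 487 FPKM in replicate 2. It was the one of the 10 genes in which replicate 2 lay below both controls. Rabepk, which overlaps Hspa5 on chromosome 2, gave 3.58 and 3.47 FPKM in controls and 3.483 and 3.005 FPKM with auranofin. Xbp1 gave 22.8 and 22.4 FPKM in controls, 33.2 FPKM in replicate 1 and 23.8 FPKM in replicate 2. Ratios of replicate 1 to the control mean were 1.36 for Hspa5 and 1.47 for Xbp1, above the 1.21 of Asns and below the 1.90 to 3.61 of the remaining 7 genes. The difference between ER genes and the others was not tested. Both auranofin libraries were above both controls in 9 of the 10 genes (all but Hspa5), against 26.3% of all genes.

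With either library left out, the lone auranofin library was assumed to vary like the others. Without replicate 2, 7 of the 10 genes passed the thresholds, against 23.1% of the 9285 genes then tested. All 10 had a Benjamini-Hochberg adjusted p under 0.05 by limma, the smallest at 7.78e-05, against 65.2% of all genes. Without replicate 1, 0 of the 10 passed the thresholds, against 0.343%, and 0 had an adjusted p under 0.05, against 0.166%. Calls made without replicate 2 thus came from auranofin replicate 1 alone. Without replicate 1, the fitted differences ran from -0.02 for Hspa5 to 0.38 for Ddit4. With both libraries kept, none of the 10 genes passed in the main fit, and Ddit4 passed under some of the alternatives given at the end.

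**Figure D3:**
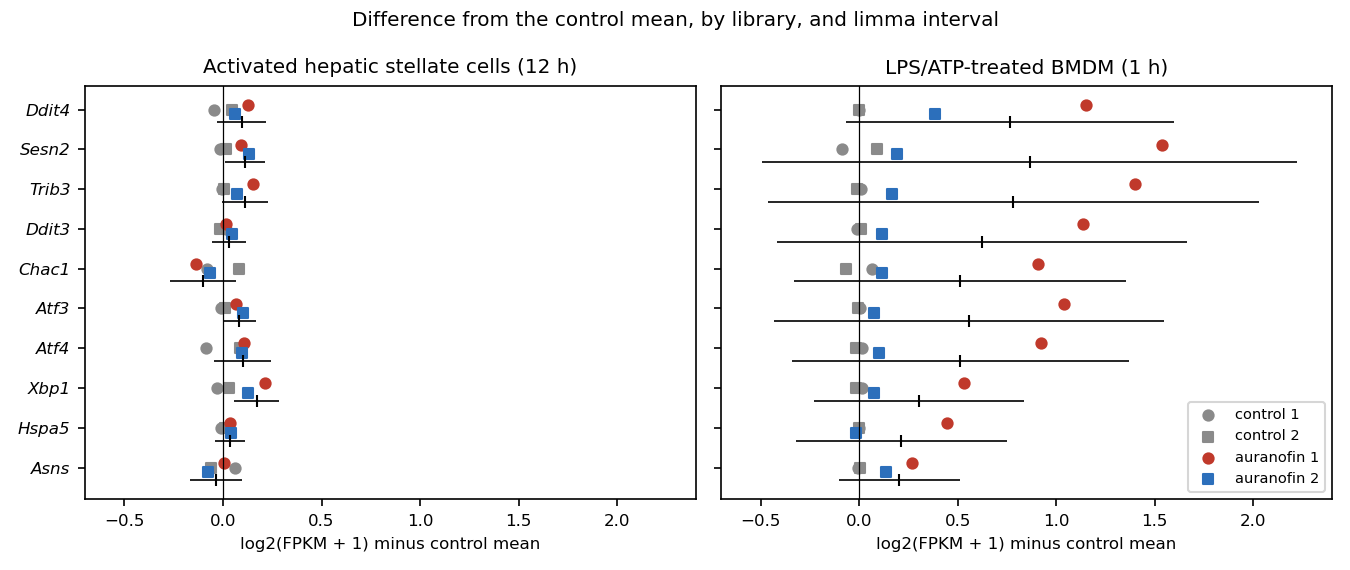
Difference of each library from the control mean on the log2(FPKM + 1) scale for the 10 genes, in AHSC on the left and BMDM on the right; points are libraries as in the key, and the black tick and line under them are limma's fitted difference and its 95% interval. In AHSC every interval lies between -0.27 and 0.29, and in BMDM the red points of auranofin replicate 1 reach further right than the blue points of replicate 2 for every gene.

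The wider pathway was read from 7 lists of related genes, from the eIF2 kinases to ER-associated degradation, none of which holds any of the 10 genes. In AHSC, 94 of these genes were tested. Slc7a11, the cystine importer and an ATF4 target, was the 1 gene past the thresholds, against the 0.576% of all genes, and 0 were past them in the lower direction. It gave 2.37 and 1.77 FPKM in controls and 4.15 and 4.07 FPKM with auranofin, a rise of 0.74 ± 0.10 (SE, log2 scale) with an adjusted p of 0.0292 by limma with Benjamini-Hochberg adjustment. By adjusted p alone, 3 of the 94 were higher and 0 lower, against 2.33% of all genes in either direction. The others were Sqstm1, the autophagy receptor p62, and Vcp, an ATPase that draws proteins from the ER for degradation. Sqstm1 gave 340 and 320 FPKM in controls and 493 and 449 FPKM with auranofin. Vcp gave 241 and 237 FPKM in controls and 290 and 285 FPKM with auranofin. Sqstm1 and Slc7a11 are also known targets of NRF2, and Vcp belongs to the ubiquitin and proteasome system. Both Sqstm1 and Vcp were named after their values were seen.

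By list, the ER lists lay slightly higher and the amino acid synthesis list slightly lower in AHSC. Of 17 ER chaperones and folding enzymes, 16 had fitted differences above 0 with a median of 0.06, and of 13 ER-associated degradation genes 13 did, with a median of 0.06. All 10 genes of amino acid synthesis and one-carbon metabolism tested had fitted differences below 0, with a median of -0.08. The 13 genes of tRNA charging and export (aminoacyl-tRNA synthetases and the exportin Xpot) had a median of -0.01 and the 10 amino acid transporters one of -0.07. The 10 sensors and eIF2 phosphatases had a median of -0.004, and the 21 other ATF4 and CHOP targets one of 0.03. Apart from the 3 genes named by adjusted p, none of these differences passed that test, and over all genes the median was 0.005.

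In BMDM 84 genes of the lists were tested, and 0 passed the thresholds, against 0.152% of all genes. Auranofin replicate 1 was at least 1.5-fold above the control mean in 20 of the 84, against 15.2% of all genes, and at least 1.5-fold below it in 4, against 8.07%. Replicate 2 was so in 0 and in 1, against 0.379% and 0.282%. Of the 20, 10 belonged to the 18 other ATF4 and CHOP targets tested. The 5 genes with the greatest difference between the 2 auranofin libraries were Slc7a11, Gdf15, Ppp1r15a, Dnajb9 and Pmaip1. Slc7a11 gave 3.48 and 3.60 FPKM in controls, 59.0 FPKM in replicate 1 and 2.87 FPKM in replicate 2. Its level in replicate 1 was 16.7 times the control mean, and in replicate 2 it was below both controls.

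Ppp1r15a encodes GADD34, the phosphatase subunit that reverses eIF2 phosphorylation. It gave 167 and 163 FPKM in controls, 799 FPKM in auranofin replicate 1 and 165 FPKM in replicate 2. Gdf15, a stress cytokine, was the gene in which replicate 2 was more than 1.5-fold below controls, with 67.5 and 66.5 FPKM in controls, 371 FPKM in replicate 1 and 20.1 FPKM in replicate 2. Dnajb9, an ER co-chaperone and target of spliced XBP1, gave 4.62 and 5.30 FPKM in controls, 23.9 FPKM in replicate 1 and 4.85 FPKM in replicate 2. Pmaip1, the pro-apoptotic NOXA, gave 2.37 and 2.26 FPKM in controls, 12.3 FPKM in replicate 1 and 2.14 FPKM in replicate 2. In 4 of these 5 genes replicate 2 was within 1.5-fold of the control mean.

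Replicate 1 did not lie above controls in every ATF4 target. Psat1, an enzyme of serine synthesis, gave 44.5 and 41.5 FPKM in the BMDM controls, 25.1 FPKM in replicate 1 and 45.5 FPKM in replicate 2. Wars, the tryptophanyl-tRNA synthetase, which interferon also induces, gave 98.1 and 97.6 FPKM in controls, 54.0 FPKM in replicate 1 and 96.4 FPKM in replicate 2. Nupr1 and Ppp1r15b, at 0.607 and 0.644 times the control mean in replicate 1, were the others of the 4 list genes at least 1.5-fold below it on the log2(FPKM + 1) scale. These 4 genes were named after their values were seen.

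**Figure D4:**
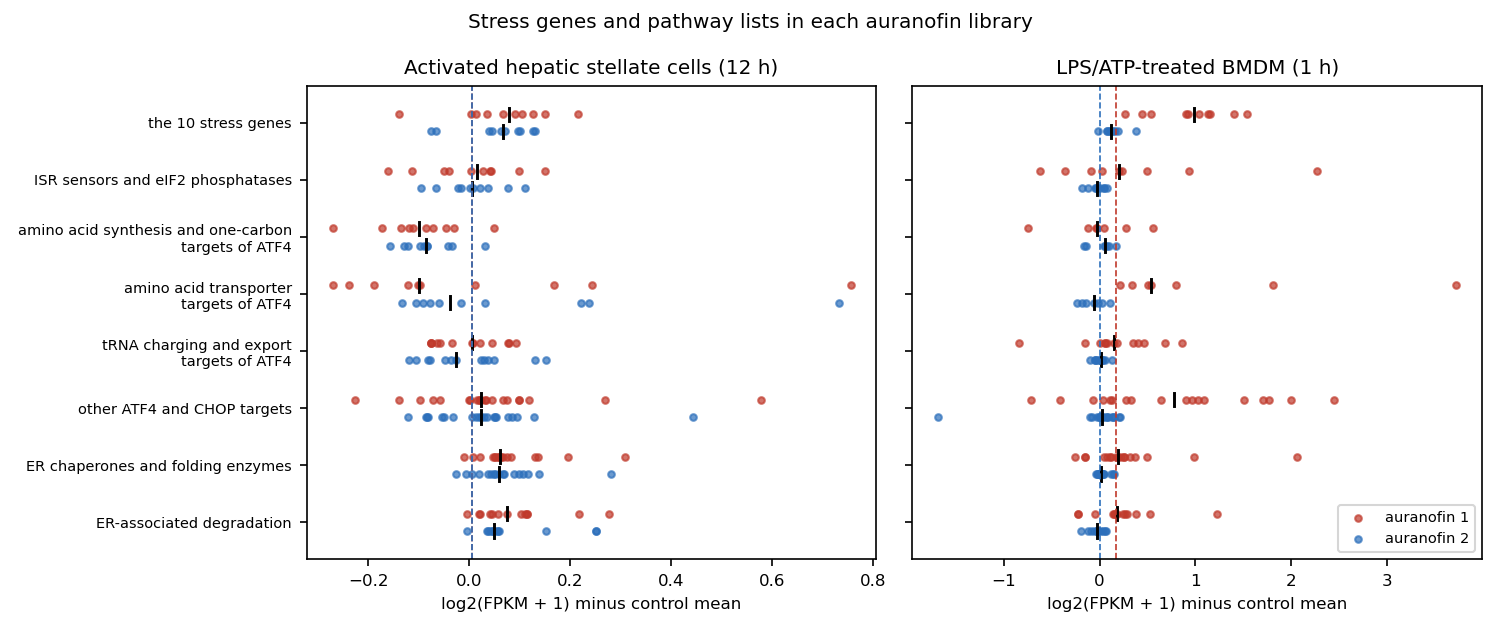
Difference of each auranofin library from the control mean on the log2(FPKM + 1) scale for the 10 genes and for the 7 lists, in AHSC on the left and BMDM on the right, with the 2 panels on different axes. Points are genes, black ticks list medians and dashed lines the median over all genes tested, in red for replicate 1 and blue for replicate 2. In BMDM the red points spread to both sides. The blue points there stay within 1.5-fold of the control mean on this scale except Gdf15, with Ddit4 of the 10 genes at 0.38.

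The genes most like 3 of the 10 across the 8 libraries were sought among 5522 genes averaging 5 FPKM or more in both tables, as values less the control mean of each table. Midn, Tmem120a and Rbm14 were the most like Atf4, with Pearson's r from 0.995 to 0.996. Eif3j2, Agfg1 and Mafk were the most like Ddit3, with r from 0.997 to 0.998. For Hspa5 they were Rbfa, Tom1 and Ubb, the last a polyubiquitin gene, with r of at least 0.999. The 8 points share library depth and scaling and hold 1 library that stood apart, auranofin replicate 1 of BMDM, so r is given as a description. In that library Midn was 1.83 times, Mafk 1.61 times and Ubb 2.11 times its control mean, and in replicate 2 they were 1.02, 1.04 and 0.989 times.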

How the data were processed

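RNA was extracted with Trizol and sequenced from a stranded mRNA kit (TruSeq Stranded mRNA LT), and for each cell type the authors deposited a table of FPKM values on mm10 with RefSeq transcripts. The submitters' processing notes name CASAVA, FastQC 0.11.7, Trimmomatic 0.38, HISAT2 2.1.0 and StringTie 1.3.4d. No column lacked a sample. FPKM were kept as deposited, and log2(FPKM + 1) was computed for genes averaging 1 FPKM or more across the 4 libraries of a table. Fold changes on this scale understate those of low genes such as Ddit4 in BMDM. Each table was fitted alone with limma 3.58.1 in R 4.3.3 (lmFit, then eBayes with trend), after tests on simulated data. Counts were not given. Of the values under 0.2 FPKM of genes with 1 transcript, only part lay on steps of 1 fragment. With GENCODE M21 lengths, depth was estimated as a value at which the share on such steps was high. Between 38.1% and 46.3% of those values came out within 0.05 of a whole fragment, beside a median of at most 5.3% over all depths tried, so no count test was run. Depth covers counting error only. Python 3.11.15, numpy 2.4.6, pandas 2.3.3 and matplotlib 3.10.9 were used. Coordinates and start windows were from RefSeq on GRCm38.p6.

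The members, lists, markers and tests were chosen with earlier results of these data known. Genes named were the 10, list genes past the thresholds (at most 5 each way per list), the 5 list genes with the greatest difference between the BMDM auranofin libraries, the 3 genes most like each of Atf4, Ddit3 and Hspa5, and the markers. Alternatives were quantile normalization or median centring, a pseudocount of 0.1, a block for the replicate number, a 2-fold threshold, no filter or one at 5 FPKM, eBayes with no trend or not used, and each library left out. Whether a number pairs libraries was looked at through the correlation of the deviations of same-numbered libraries from their group means. This correlation was 0.11 in AHSC and -0.06 in BMDM over 2 pairs each, too few to decide. The libraries of a group were not copies of each other.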

Additional observations from a re-analysis of the deposited data

Results flagged for a closer look

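Chac1 had both auranofin libraries below the control mean in AHSC and both above it in BMDM. The fitted difference was -0.10 on the log2(FPKM + 1) scale in AHSC and 0.51 in BMDM. Whether AHSC and BMDM differ was not tested, and cell type, dose, time and stimulus cannot be told apart. In AHSC the groups overlapped, and in BMDM auranofin replicate 2 was 1.10 times the control mean against 2.08 times in replicate 1.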

How the results depend on the processing

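In AHSC, 0 of the 10 stress genes passed the thresholds under every alternative run, while the count over all genes, 70, was 124 with a pseudocount of 0.1, 17 at 2-fold and between 107 and 139 with a library left out. In BMDM the count over all genes, 14, was 27 with a pseudocount of 0.1, 8 with a filter at 5 FPKM, 7 with no moderation, 7 at 2-fold and between 14 and 2146 with a library left out, the highest without auranofin replicate 2. The replicate block gave 42 genes in BMDM and 75 in AHSC, and whether the replicate numbers pair the libraries is not known. Of the 10 genes, 1 (Ddit4) passed in BMDM with a pseudocount of 0.1, quantile normalization, centring on the median or the replicate block, and between 0 and 7 with a library left out. Ddit4 was not tested with a filter at 5 FPKM. The cause of these shifts was not tested. The fitted difference of Asns in AHSC, -0.04, ran from -0.096 to 0.023 with a library left out and was above 0 without control replicate 1 (0.023) or auranofin replicate 2 (0.0027). That of Hspa5 in BMDM, 0.21, ran from -0.018 without auranofin replicate 1 to 0.44 without replicate 2. That of Chac1 in AHSC, -0.10, ran from -0.18 without control replicate 1 to -0.02 without control replicate 2. Apart from Asns and Hspa5, the direction of each of the 10 genes was kept under each alternative run in both tables. The number of libraries per group, 2, and depth known only by estimate, limit all of these values.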
